A study of Mus musculus with 11 samples.

Results

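The response to rapamycin was measured in mouse embryonic fibroblasts that carried an siRNA against Crebl2, which encodes a small bZIP protein of the CREB family. The comparison takes 6 of the 11 arrays of the series: 3 of cells given rapamycin at 20 nM for 12 h and 3 of cells given ethanol, the control, for 12 h. They were chosen by these labels. All cells came from a line that lacks both p53 and TSC2, so ethanol controls and treated cells share these losses. The labels do not say whether the line is a single clone. The knockdown lasted 3 days per the sample labels and 2.5 days per the design text, which also writes the target as Creb2. The other 5 arrays held the same line with an siRNA against luciferase, a gene that mouse cells do not have, with ethanol (2 arrays) or rapamycin (3 arrays). What separates the replicates is not stated in the labels, so the p-values cover the spread among these arrays, which may be technical.

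TSC2 is part of the complex that switches off Rheb and thereby the kinase complex mTORC1, and in its absence mTORC1 stays active even when growth factors are scarce. Active mTORC1 raises the translation and transcription programmes of growing cells: ATF4 with its amino acid and one-carbon enzymes, SREBP with sterol and fatty acid synthesis, HIF1A and MYC with glycolysis, and nucleotide and ribosome production. It holds back autophagy and the lysosomal programme of TFEB, and rapamycin, bound to FKBP12, is an allosteric inhibitor of mTORC1.

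Ethanol replicate 3 and the 3 rapamycin arrays lay together and apart from the other 7 arrays of the series. Ethanol replicate 3 correlated at 0.99 with each rapamycin array and between 0.946 and 0.948 with ethanol replicates 1 and 2, and the first principal component of the 11 arrays held 73.9% of the variance. Probes of 1 gene shared little of this shift: over 5779 genes with 2 or more kept probes, the difference of ethanol replicate 3 from replicates 1 and 2 correlated at 0.148 between 2 probes of a gene. The rapamycin change correlated at 0.25 against all 3 ethanol arrays and at 0.52 against ethanol replicate 3 alone. Each change is therefore given on the log2 scale of the authors' normalized intensity, with the standard error after ±, first against all 3 ethanol arrays and then against ethanol replicate 3 alone. The second reading rests on 1 ethanol array, whose own spread cannot be measured. The error of this reading comes from the spread within the rapamycin group, within the luciferase siRNA groups and between ethanol replicates 1 and 2. Pcna, the sliding clamp of DNA polymerases, shows what the shift does: its log2 intensity was 8.12, 8.36 and 12.16 with ethanol (replicates 1 to 3) and 11.197, 11.35 and 11.43 with rapamycin. Its change was 1.78 (adjusted p = 0.167) against all 3 ethanol arrays and -0.83 (adjusted p = 0.000646) against replicate 3. The probes of Ccna2 (cyclin A2), Ube2c (a ubiquitin-conjugating enzyme of mitosis) and Idi1 (a sterol synthesis enzyme) behaved alike, with changes of 1.78 and -0.60, 2.15 and -0.52, and 1.22 and -0.80. These 4 were chosen after their values were seen. Where a gene is said below to have risen or fallen by 2 values, these are the 2 readings, it passed in both, and all its kept probes had the same sign in both. The rule asks for the sign of the other probes alone, not for the size of their change.

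**Figure D1:**
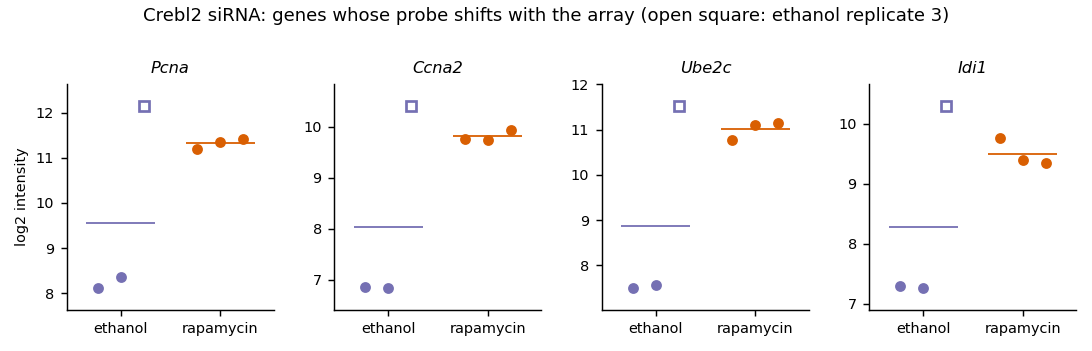
Log2 intensity (vertical axis) of Pcna, Ccna2, Ube2c and Idi1 on the 6 Crebl2 siRNA arrays, with ethanol replicate 3 as an open square and lines for group means. Ethanol replicates 1 and 2 sit far below the other 4 arrays, and in all 4 genes the 3 rapamycin arrays sit below ethanol replicate 3.

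Median intensities of the 11 arrays lay between 110.5 and 112.4, and 46.9% to 51.2% of probes were above background. Of 14700 genes tested with limma, 1911 passed an adjusted p of 0.05 against all 3 ethanol arrays (13% of those tested: 892 higher, or 6.07%, and 1019 lower, or 6.93%). Against ethanol replicate 3 alone 1115 passed (7.59%: 694 higher, or 4.72%, and 421 lower, or 2.86%). The counts of each list below in these 2 readings are to be read beside these shares, and counts of 1 or 2 genes do not set a list apart from them. In 1 direction in both readings 596 passed (4.05%: 299 higher, or 2.03%, and 297 lower, or 2.02%). Of these, 476 had probes of 1 sign throughout, 240 higher and 236 lower. Only 294 of the 596 had 2 or more kept probes, and 174 of those 294 had probes of 1 sign. The other genes of the 596 had 1 kept probe, so agreement between probes was not tested for them. The median change over all genes was -0.022 and 0.034. The count against all 3 moved with single arrays: it was 602, 604 and 5853 without ethanol replicate 1, 2 or 3 and 713, 822 and 666 without rapamycin replicate 1, 2 or 3. The count against replicate 3 fell to 242 when the non-normalized intensities were background-corrected and normalized anew with neqc, the background correction and quantile normalization of limma for bead arrays. Of the calls against replicate 3, 62.2% were higher, and 45.9% with neqc. With neqc 14635 genes were tested: 111 of the 242 calls against replicate 3 were higher. Against all 3, neqc gave 1366 calls, 405 of them higher. A fit of only the compared groups gave 423 calls of 14700 against all 3, 162 of them higher. List counts under these alternatives are to be read beside these counts. Where so few genes pass, a low or absent count does not set a list apart. The genes named here were not all stable: of 106 named genes that passed against replicate 3, 60 did not pass with neqc, and of 106 that passed against all 3, 34 did not in a fit of only the compared groups and 20 to 23 did not without any 1 of ethanol replicates 1 and 2 and the 3 rapamycin arrays. A gene's call is remarked on below where 5 or more of the alternatives ended it. The targeted gene itself was near background, detected on 2 of 3 arrays in each group, and its log2 intensity was 7.08, 6.81 and 6.68 with ethanol (replicates 1 to 3) and 6.796, 6.88 and 6.72 with rapamycin, which overlap. These arrays all carried the siRNA and do not measure the knockdown. Tsc2 changed by -0.50 (adjusted p = 0.0328) and -0.18 (adjusted p = 0.491), and 1 of its 3 probes had another sign. The first call was lost under 9 of 22 alternatives (adjusted p up to 0.132). Where the deletion lies relative to these probes is not given in the sources used here.

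Genes of the ATF4 programme fell with rapamycin in the Crebl2 siRNA cells. ATF4 is the transcription factor that drives amino acid uptake, serine and one-carbon synthesis and the CHOP stress arm, and 35 of the 38 genes listed as its targets and as amino acid supply were measured. Against all 3 ethanol arrays 22 fell and 0 rose, against replicate 3 alone 13 fell and 0 rose, and 12 fell in both. The median change was -0.47 against all 3 and -0.33 against replicate 3. Normalized anew with neqc, 19 fell against all 3 and 7 against replicate 3, with medians of -0.61 and -0.61. In a fit of only the compared arrays, 12 fell against all 3. In 25 of the 35 the 3 rapamycin arrays all lay below the 3 ethanol arrays, which held for 14.1% of all genes tested. Ddit4 encodes REDD1, a stress-induced inhibitor of mTORC1, and its log2 intensity was 10.35, 10.35 and 9.803 with ethanol (replicates 1 to 3) and 7.93, 8.34 and 8.55 with rapamycin. It fell by 1.895 ± 0.17 against all 3 ethanol arrays (adjusted p = 0.000356) and by 1.53 ± 0.15 against replicate 3 (adjusted p = 1.33e-06). Ethanol replicate 3 was the lowest ethanol array, and the groups did not overlap. Trib3, a pseudokinase induced by ATF4 and CHOP, was 11.29, 11.36 and 10.85 with ethanol (replicates 1 to 3) and 9.34, 9.46 and 9.41 with rapamycin. It fell by 1.76 ± 0.13 against all 3 ethanol arrays (adjusted p = 0.000218) and by 1.44 ± 0.12 against replicate 3 (adjusted p = 1.83e-07), with 3 probes of 1 sign. Chac1, which breaks down glutathione, was 12.07, 12.18 and 11.85 with ethanol (replicates 1 to 3) and 10.92, 10.85 and 11.05 with rapamycin, again without overlap. It fell by 1.096 ± 0.09 against all 3 ethanol arrays (adjusted p = 0.000356) and by 0.91 ± 0.12 against replicate 3 (adjusted p = 4.08e-05).

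The proximal promoters of 3 members of the list that fell in both readings are shown because each holds the letters TGATGNAA, the core of the CEBP-ATF response element that ATF4 dimers bind. These letters are in capitals (RefSeq, GRCm38.p6, 250 bases before to 50 after the start, 5′ to 3′ along the gene; all 3 matches read on the opposite strand). Trib3 (chr2:152344011-152344310 on the minus strand) has it at bases 15 to 22 after the start, Chac1 (chr2:119350992-119351291 on the plus strand) at -193 to -186 and Fgf21 (chr7:45615441-45615740 on the minus strand) at -139 to -132.
Trib3: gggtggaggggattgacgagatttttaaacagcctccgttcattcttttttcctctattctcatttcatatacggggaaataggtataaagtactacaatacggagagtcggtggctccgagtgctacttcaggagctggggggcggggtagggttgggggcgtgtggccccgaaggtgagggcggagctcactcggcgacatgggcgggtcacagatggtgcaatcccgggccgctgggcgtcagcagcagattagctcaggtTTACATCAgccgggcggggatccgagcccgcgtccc
Chac1: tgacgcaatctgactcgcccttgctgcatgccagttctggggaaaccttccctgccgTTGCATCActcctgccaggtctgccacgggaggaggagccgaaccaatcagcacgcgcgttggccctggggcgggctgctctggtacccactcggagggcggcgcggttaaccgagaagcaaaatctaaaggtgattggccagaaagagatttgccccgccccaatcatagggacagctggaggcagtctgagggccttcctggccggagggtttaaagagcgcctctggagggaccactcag
Fgf21: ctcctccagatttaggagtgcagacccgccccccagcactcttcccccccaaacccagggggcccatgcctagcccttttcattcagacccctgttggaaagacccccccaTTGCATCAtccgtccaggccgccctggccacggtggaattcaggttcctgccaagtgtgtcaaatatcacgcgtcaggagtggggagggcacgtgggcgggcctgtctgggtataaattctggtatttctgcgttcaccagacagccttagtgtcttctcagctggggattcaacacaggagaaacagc
On either strand the letters were in 31.8% of the windows of members that fell against all 3 ethanol arrays (7 of 22), in 30.6% of all windows of the list (11 of 36) and in 2.67% of the windows of all genes tested. The share was thus alike in the members that fell and in the list as a whole, and a match is a description of the sequence, not a bound site.

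Enzymes, transporters and secreted factors of the list fell too. Shmt2 and Mthfd2, mitochondrial enzymes of serine and folate metabolism, fell by 1.298 and 0.99 and by 1.18 and 0.84. Shmt2 was 9.51, 9.64 and 9.11 with ethanol (replicates 1 to 3) and 8.25, 8.05 and 8.07 with rapamycin, with ethanol replicate 3 lowest of the ethanol arrays and no overlap. Ddit3, which encodes CHOP, fell by 1.51 and 0.70, and its change was smaller in the second reading, ethanol replicate 3 differing from the mean of replicates 1 and 2 by -1.22. Psat1 and Phgdh, enzymes of serine synthesis, fell by 0.85 and 0.78 and by 0.86 and 0.60, and Slc1a4, a neutral amino acid transporter, by 0.66 and 0.50. Fgf21, a secreted metabolic hormone, fell by 0.80 and 0.60. Asns, asparagine synthetase, and Slc7a3, a cationic amino acid transporter, passed in both readings (-0.49 and -0.57, and -1.004 and -0.74), but 1 probe of each had another sign. Atf4 itself changed by -0.11 (adjusted p = 0.718) and -0.60 (adjusted p = 0.00179), with 1 of 2 probes of the other sign.

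Of the enzymes that charge tRNAs with amino acids, 19 of the 20 listed were measured: 7 fell and 0 rose against all 3 ethanol arrays, and 2 fell and 1 rose against replicate 3. The medians were -0.32 against all 3 and -0.16 against replicate 3; with neqc 1 fell against replicate 3, and in a fit of only the compared arrays 1 fell against all 3. Nars (asparaginyl-tRNA synthetase) was 10.45, 10.46 and 10.32 with ethanol (replicates 1 to 3) and 9.41, 9.49 and 9.36 with rapamycin, and it fell by 0.99 ± 0.08 against all 3 ethanol arrays (adjusted p = 0.000303) and by 0.90 ± 0.12 against replicate 3 (adjusted p = 3.96e-05). The groups did not overlap, and the same held for Aars (alanyl-tRNA synthetase), which fell by 1.00 and 0.55. Qars (glutaminyl) rose against replicate 3 alone, by 0.41 (adjusted p = 0.0392), with 1 of its 2 probes of another sign, a call lost under 8 of 22 alternatives (adjusted p up to 0.248).

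Genes of sterol and fatty acid synthesis, the SREBP targets, fell in part: of the 27 measured (of 33), 11 fell and 0 rose against all 3, 7 fell and 1 rose against replicate 3, and 6 fell in both. The medians were -0.21 against all 3 and -0.23 against replicate 3; with neqc 3 fell against replicate 3, and in a fit of only the compared arrays 4 fell against all 3. Stard4, a cytosolic sterol carrier, was 10.31, 10.22 and 10.11 with ethanol (replicates 1 to 3) and 9.22, 9.35 and 9.399 with rapamycin. It fell by 0.89 ± 0.09 against all 3 ethanol arrays (adjusted p = 0.000388) and by 0.79 ± 0.12 against replicate 3 (adjusted p = 0.000197), and no ethanol array overlapped a rapamycin array. Hsd17b7, Msmo1, Lss and Fdps, enzymes along the path from isoprenoids to cholesterol, fell by 0.81 and 0.66, by 0.72 and 0.54, by 0.69 and 0.53 and by 0.85 and 0.41. The call of Fdps against replicate 3 was lost under 5 of 22 alternatives (adjusted p up to 0.0967). Elovl6, which elongates fatty acids, passed in both readings (-0.80 and -0.64) with 1 of 2 probes of another sign. Fads2, a fatty acid desaturase, rose against replicate 3 alone by 0.42 (adjusted p = 0.0278), with 1 of 2 probes of another sign.

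Glycolysis and the pentose phosphate pathway followed the same direction: of the 22 measured (of 26), 11 fell against all 3, 6 fell against replicate 3 and in both, and 0 rose in either. The medians were -0.43 against all 3 and -0.22 against replicate 3; with neqc 2 fell against replicate 3, and in a fit of only the compared arrays 5 fell against all 3. Ldha, which makes lactate from pyruvate, was 12.32, 12.53 and 12.24 with ethanol (replicates 1 to 3) and 11.44, 11.46 and 11.56 with rapamycin. It fell by 0.87 ± 0.09 against all 3 ethanol arrays (adjusted p = 0.000578) and by 0.75 ± 0.12 against replicate 3 (adjusted p = 0.000382), without overlap of the groups. Slc2a1 (the glucose transporter GLUT1) fell by 0.43 and 0.53, Tpi1 (triosephosphate isomerase) by 0.53 and 0.37, and Rpia (ribose-5-phosphate isomerase) by 0.70 and 0.47. The call of Tpi1 against replicate 3 was lost under 13 of 22 alternatives (adjusted p up to 0.168). Pfkl (phosphofructokinase, liver type) and Pgam1 (phosphoglycerate mutase) passed in both (-1.01 and -0.82, and -0.43 and -0.46), each with 1 of 2 probes of another sign. Pgam1 was lost under 6 of 22 alternatives (adjusted p up to 0.291) against all 3 and under 7 of 22 alternatives (adjusted p up to 0.147) against replicate 3, and with the mean of its probes it read 0.62 against all 3. The hypoxia list, made of HIF1A targets, had as many rises as falls: of the 15 measured (of 16), 2 rose and 2 fell against all 3, and 1 rose and 1 fell against replicate 3. The medians were 0.01 against all 3 and 0.01 against replicate 3. Ndrg1, a gene induced by hypoxia and by metal chelation, rose by 0.89 and 0.58, while Ankrd37, another gene induced by hypoxia, fell by 0.39 and 0.53, a call lost against all 3 under 6 of 22 alternatives (adjusted p up to 0.0921).

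Nucleotide synthesis gave 8 falls and 1 rise against all 3 ethanol arrays and 5 falls and 0 rises against replicate 3 among the 20 measured (of 21). The medians were -0.33 against all 3 and -0.14 against replicate 3; with neqc 1 fell against replicate 3, and in a fit of only the compared arrays 3 fell against all 3. Ppat, which catalyses the committed step of purine synthesis, fell by 0.44 and 0.71, and Dhodh, the mitochondrial enzyme of pyrimidine synthesis, by 0.58 and 0.54. The call of Ppat against all 3 was lost under 15 of 22 alternatives (adjusted p up to 0.163). Paics, a purine synthesis enzyme, was the 1 that rose against all 3, by 2.08 (adjusted p = 0.0395), and was 0.24 (adjusted p = 0.444) against replicate 3, with ethanol replicate 3 lying 2.75 above the mean of replicates 1 and 2. Its call was lost under 13 of 22 alternatives (adjusted p up to 0.158). Of the 31 measured (of 34) genes for ribosome biogenesis and RNA polymerase I, 10 fell and 1 rose against all 3. Against replicate 3, 6 fell and 0 rose, and 2 fell in both; with neqc 2 fell against replicate 3, and in a fit of only the compared arrays 4 fell against all 3. The 2 that fell in both readings were Nop56, a core protein of box C/D snoRNPs, which fell by 1.23 and 0.83, and Rrp12, which acts in ribosomal RNA processing and export, which fell by 0.80 and 0.72. The ribosomal protein genes themselves moved little: of the 20 measured (of 30), 2 rose and 0 fell against all 3, and 1 rose against replicate 3. That was Rpl22, by 0.60 and 0.81. Among the 19 measured (of 21) translation factors 3 rose and 3 fell against all 3, and 5 rose and 0 fell against replicate 3. Here 1 rose against replicate 3 with neqc, and 0 rose against all 3 in a fit of only the compared arrays. Pdcd4, an inhibitor of the helicase eIF4A, rose by 0.46 and 0.64, with 4 probes of 1 sign. Its other probes read 0.03, 0.6 and 0.12 against replicate 3. Eif4b, a cofactor of that helicase, rose by 2.22 and 0.50, with ethanol replicate 3 lying 2.58 above the mean of replicates 1 and 2. Against all 3 the call of Eif4b was lost under 6 of 22 alternatives (adjusted p up to 0.122).

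**Figure D2:**
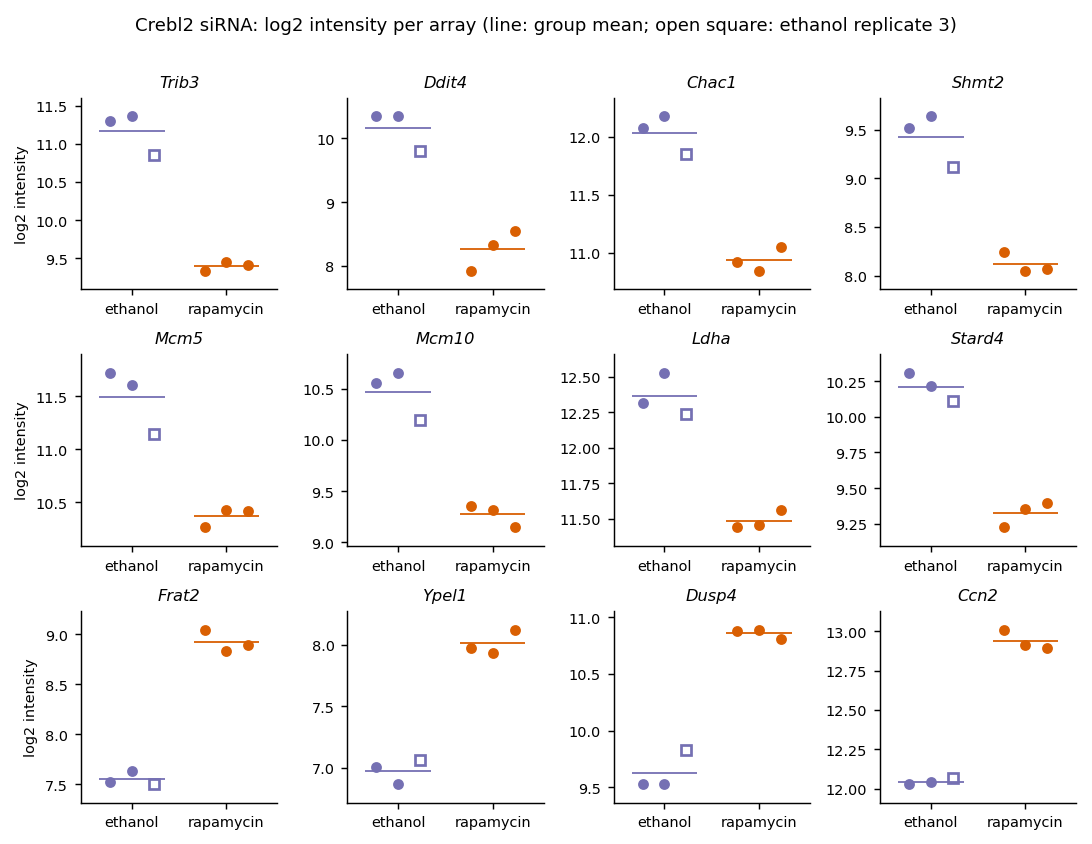
Log2 intensity (vertical axis, own scale per panel) of 12 genes on each of the 6 Crebl2 siRNA arrays, with ethanol replicate 3 drawn as an open square and lines for group means. In the 8 genes of the upper rows the 3 rapamycin arrays lie below every ethanol array, and in Frat2, Ypel1, Dusp4 and Ccn2 they lie above every one.

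Genes of DNA replication fell with rapamycin, with the largest median fall against replicate 3 of the 37 lists. Of the listed genes of replication and G1/S, 27 of the 28 were measured. Of these, 21 fell and 0 rose against all 3 ethanol arrays, 19 fell and 0 rose against replicate 3, and 16 fell in both. The median change was -0.59 against all 3 and -0.59 against replicate 3, and in 22 of the 27 the rapamycin arrays all lay below the ethanol arrays, against 14.1% of all genes tested. With neqc, 21 fell against all 3 and 12 against replicate 3, with medians of -0.92 and -0.82. With only the compared arrays fitted, 11 fell against all 3. Mcm5, a subunit of the MCM2-7 helicase, was 11.72, 11.601 and 11.15 with ethanol (replicates 1 to 3) and 10.26, 10.43 and 10.42 with rapamycin. It fell by 1.12 ± 0.13 against all 3 ethanol arrays (adjusted p = 0.000952) and by 0.78 ± 0.12 against replicate 3 (adjusted p = 0.0002). Mcm10, which joins the helicase as it is activated, was 10.55, 10.65 and 10.19 with ethanol (replicates 1 to 3) and 9.36, 9.32 and 9.14 with rapamycin. It fell by 1.19 ± 0.13 against all 3 ethanol arrays (adjusted p = 0.000595) and by 0.92 ± 0.13 against replicate 3 (adjusted p = 9.14e-05), with 3 probes of 1 sign. For both genes ethanol replicate 3 lay below the other ethanol arrays and well above the rapamycin arrays. Tk1, the thymidine kinase of S phase, fell by 1.05 and 0.86 with 4 probes of 1 sign. Its other probes read -0.1, -0.22 and -0.68 against all 3 and -0.02, -0.19 and -0.72 against replicate 3. The other helicase genes Mcm3 and Mcm2 fell by 1.00 and 0.64 and by 0.81 and 0.46, and Gins1 and Gins2, of the GINS complex that travels with the helicase, fell by 0.97 and 0.66 and by 0.58 and 0.73. Rfc3, of the clamp loader, fell by 0.91 and 0.59, and the transcription factors E2f2 and E2f1, which drive this programme, by 0.98 and 0.66 and by 0.56 and 0.59. Outside the list, Cdc7, the kinase that starts origins of replication, fell by 1.12 and 1.04, and H2ac11, a histone H2A gene, fell by 1.33 and 0.99. In bulk RNA, fewer cells in S phase and less of these mRNAs per cell cannot be told apart.

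The promoters of Mcm5 and E2f2 are shown because they hold the letters TTTNGCGC, a form of the E2F site, in capitals (same source, build and window). In Mcm5 (chr8:75109259-75109558 on the plus strand) 2 overlapping matches on opposite strands cover bases -153 to -142, and in E2f2 (chr4:136172024-136172323 on the plus strand) 1 match lies at bases 40 to 47 after the start.
Mcm5: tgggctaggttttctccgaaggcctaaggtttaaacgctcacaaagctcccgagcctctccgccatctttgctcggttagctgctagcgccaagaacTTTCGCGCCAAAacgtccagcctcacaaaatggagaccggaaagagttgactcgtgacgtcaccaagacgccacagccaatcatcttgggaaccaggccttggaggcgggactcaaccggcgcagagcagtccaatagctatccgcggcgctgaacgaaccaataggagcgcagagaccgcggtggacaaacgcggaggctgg
E2f2: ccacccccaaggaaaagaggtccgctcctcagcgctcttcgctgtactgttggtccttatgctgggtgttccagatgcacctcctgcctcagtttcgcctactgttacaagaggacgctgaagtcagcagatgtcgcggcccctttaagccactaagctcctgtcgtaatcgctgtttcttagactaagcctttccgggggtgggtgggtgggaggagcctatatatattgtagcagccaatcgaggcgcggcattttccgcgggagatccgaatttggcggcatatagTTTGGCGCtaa
On either strand the letters were in 33.3% of the windows of members that fell against all 3 (6 of 18), in 29.2% of the list's windows (7 of 24) and in 2.25% of the windows of all genes tested. The members that fell and the whole list had like shares, so the letters describe the list and not the rapamycin response. Here too a match is not a bound site.

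Genes of mitosis fell less evenly: of the 20 measured (of 23), 9 fell and 1 rose against all 3, 6 fell and 0 rose against replicate 3, and 4 fell in both. The medians were -0.32 against all 3 and -0.15 against replicate 3; with neqc 1 fell against replicate 3, and in a fit of only the compared arrays 3 fell against all 3. Top2a (topoisomerase II alpha), Aurka and Aurkb (mitotic kinases) fell by 0.92 and 0.56, by 0.85 and 0.56 and by 0.51 and 0.44. Against replicate 3 the call of Aurkb was lost under 6 of 22 alternatives (adjusted p up to 0.119). Among the 9 measured (of 10) D cyclins, their kinases and inhibitors, Ccnd1 (cyclin D1) fell by 1.01 and 0.74 with 3 probes of 1 sign, and Cdkn2b, which encodes the CDK4/6 inhibitor p15, rose by 1.07 and 0.51. For Cdkn2b ethanol replicate 3 lay at 12.06, above replicates 1 and 2 at 11.2 and 11.24. Cdkn1a, which encodes the CDK inhibitor p21, fell by 0.55 and 0.48. Other genes among the 12 largest falls were Igfbp5, a binding protein of insulin-like growth factors, by 1.48 and 1.27, Ckb (brain-type creatine kinase) by 1.17 and 0.93, Nup43 (a nucleoporin) by 1.17 and 0.92, and Rpp25 (a subunit of RNase P and MRP) by 1.11 and 0.92. Igfbp5 was 9.81, 9.58 and 9.37 with ethanol (replicates 1 to 3) and 8.04, 8.04 and 8.23 with rapamycin, with 3 probes of 1 sign and no overlap.

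The largest rises came from genes of varied function. Frat2, whose protein binds GSK3, was 7.52, 7.63 and 7.501 with ethanol (replicates 1 to 3) and 9.05, 8.83 and 8.896 with rapamycin. It rose by 1.37 ± 0.09 against all 3 ethanol arrays (adjusted p = 0.000166) and by 1.42 ± 0.13 against replicate 3 (adjusted p = 2.53e-07). The 3 ethanol arrays lay close together here, replicate 3 included, and far below the rapamycin arrays. Bckdha, a subunit of the enzyme that commits branched-chain amino acids to breakdown, was 9.65, 9.497 and 9.36 with ethanol (replicates 1 to 3) and 10.66, 10.69 and 10.71 with rapamycin. It rose by 1.19 ± 0.09 against all 3 ethanol arrays (adjusted p = 0.000316) and by 1.33 ± 0.12 against replicate 3 (adjusted p = 4.15e-07), without overlap. Akap5, an anchor of protein kinase A that the array lists under an older clone name, rose by 1.06 and 1.24, and Abtb1 by 1.05 and 1.03. Scel (sciellin) rose by 1.08 and 1.05, Cnn2 (calponin 2) by 1.18 and 0.92, Osmr (a receptor chain for oncostatin M) by 0.88 and 1.13 and Csdc2 (a cold-shock domain protein) by 0.85 and 0.83. The clone 0610009L18Rik rose by 1.52 and 0.94, with ethanol replicate 3 at 8.11, above replicates 1 and 2 at 7.37 and 7.08. In the Ypel and Frat list, 3 of 7 rose against all 3 and 4 of 7 against replicate 3, with 0 falls. Ypel1 was 7.01, 6.87 and 7.06 with ethanol (replicates 1 to 3) and 7.97, 7.94 and 8.12 with rapamycin, and rose by 1.03 and 0.95, and Ypel3 rose by 0.55 and 0.81.

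Targets of YAP and SRF, the transcription factors that read cell tension and actin, rose in part: of the 14 measured (of 15), 6 rose and 0 fell in each reading and 5 rose in both. The medians were 0.31 against all 3 and 0.28 against replicate 3; with neqc 3 rose against replicate 3, and in a fit of only the compared arrays 3 rose against all 3. Ccn2 (connective tissue growth factor) was 12.03, 12.04 and 12.07 with ethanol (replicates 1 to 3) and 13.01, 12.91 and 12.89 with rapamycin. It rose by 0.89 ± 0.09 against all 3 ethanol arrays (adjusted p = 0.000416) and by 0.87 ± 0.13 against replicate 3 (adjusted p = 0.000102), and all 3 rapamycin arrays lay above all 3 ethanol arrays. Ankrd1, a nuclear ankyrin-repeat protein, rose by 0.77 and 0.82, Ccn1 (CYR61) by 1.41 and 0.65, and Tagln (transgelin) and Flna (filamin A), which bind actin, by 0.47 and 0.79 and by 0.63 and 0.49. For Ccn1 ethanol replicate 3 lay at 10.22, above replicates 1 and 2 at 9.07 and 9.06. Its other probes read 2.25 and 0.19 against all 3 and 0.87 and 0.55 against replicate 3. Against all 3 the call of Tagln was lost under 16 of 22 alternatives (adjusted p up to 0.159). Of the 19 measured (of 22) genes of ERK feedback and immediate early response, 4 rose against all 3, 5 rose against replicate 3 and 0 fell in either. In this list 1 rose against replicate 3 with neqc, and 3 rose against all 3 in a fit of only the compared arrays. Dusp4, a phosphatase that switches off ERK in the nucleus, was 9.53, 9.53 and 9.83 with ethanol (replicates 1 to 3) and 10.88, 10.89 and 10.81 with rapamycin. It rose by 1.23 ± 0.10 against all 3 ethanol arrays (adjusted p = 0.000356) and by 1.03 ± 0.12 against replicate 3 (adjusted p = 1.58e-05), with 4 probes of 1 sign. The other probes of Dusp4 changed less: they read 0.04, 0.38 and 0.21 against all 3 and 0.05, 0.59 and 0.28 against replicate 3. Dusp1, a related phosphatase, and Egr1, an immediate early transcription factor, rose by 0.78 and 0.57 and by 0.65 and 0.58. Against replicate 3 the call of Dusp1 was lost under 9 of 22 alternatives (adjusted p up to 0.297). Of the 8 measured (of 10) Id and TGF-beta feedback genes 2 rose in both readings. These were Id3, an inhibitor of bHLH factors, by 0.65 and 0.47 and Skil (SnoN) by 0.56 and 0.65. In this list 0 rose against replicate 3 with neqc, and 1 rose against all 3 in a fit of only the compared arrays.

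Lysosomal genes rose in part: of the 29 measured (of 33), 8 rose and 1 fell against all 3, 8 rose and 0 fell against replicate 3, and 3 rose in both. The medians were 0.12 against all 3 and 0.20 against replicate 3; with neqc 0 rose against replicate 3, and in a fit of only the compared arrays 2 rose against all 3. Sgsh (sulfamidase) and Tpp1 (tripeptidyl peptidase) rose by 1.04 and 0.69 and by 0.51 and 0.62. Glb1 (beta-galactosidase) passed in both (0.49 and 0.56) with 1 of 3 probes of another sign. Of the 20 measured (of 22) autophagy genes 5 rose and 1 fell against all 3 and 5 rose and 0 fell against replicate 3. The 1 that rose in both was Wipi1, which binds the lipid PI3P on forming autophagosomes, by 0.43 and 0.55 with 3 probes of 1 sign. Its call against all 3 was lost under 6 of 22 alternatives (adjusted p up to 0.0936). Among the autophagy genes 0 rose against replicate 3 with neqc, and 0 against all 3 in a fit of only the compared arrays. Among the 18 measured (of 21) FoxO factors and targets 3 rose and 0 fell against all 3, where 6.07% of all genes rose. Against replicate 3, where 4.72% of all genes rose, 5 of them rose and 1 fell. In this list 2 rose and 1 fell against replicate 3 with neqc, and 2 rose against all 3 in a fit of only the compared arrays. Fbxo32 (the ubiquitin ligase atrogin-1) rose by 0.71 and 0.82, and Ccng2 (cyclin G2) by 2.04 and 0.62, with ethanol replicate 3 lying 2.13 above replicates 1 and 2. Against all 3 the call of Ccng2 was lost under 6 of 22 alternatives (adjusted p up to 0.0979). Of the 16 measured (of 19) genes for the mTOR complexes and their regulators, 2 rose and 1 fell against all 3, and 2 rose against replicate 3. Here 0 rose against replicate 3 with neqc, and 1 rose against all 3 in a fit of only the compared arrays. Rictor, the defining subunit of mTORC2, rose by 0.50 and 0.49, and its call against all 3 was lost under 5 of 22 alternatives (adjusted p up to 0.086). Mtor itself was -0.72 (adjusted p = 0.0167) and -0.31 (adjusted p = 0.173), with 1 of 2 probes of another sign, and lost its first call under 6 of 22 alternatives (adjusted p up to 0.0846). Igf1r, the receptor for IGF1, rose by 0.45 and 0.68 with 3 probes of 1 sign, a call lost against all 3 under 7 of 22 alternatives (adjusted p up to 0.0973). Its other probes read 0.05 and 0.12 against all 3 and 0.14 and 0.12 against replicate 3. In its list of 13, 2 rose and 1 fell in each reading.

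Proteasome genes, whose products degrade ubiquitin-tagged proteins, fell in part against all 3: of the 18 measured (of 20), 5 fell and 0 rose against all 3, where 6.93% of all genes fell, and 1 fell against replicate 3. The medians were -0.31 against all 3 and -0.12 against replicate 3, and in 11 of the 18 the rapamycin arrays all lay below the ethanol arrays, which held for 14.1% of all genes; with neqc 0 fell against replicate 3, and in a fit of only the compared arrays 1 fell against all 3. The gene that fell in both was Psmc4, an ATPase subunit (-0.45 and -0.41), with 1 of 2 probes of another sign and its call against replicate 3 lost under 6 of 22 alternatives (adjusted p up to 0.149). Of the 20 genes of ER chaperones and the unfolded protein response, 5 fell and 1 rose against all 3 and 0 passed against replicate 3. The medians were -0.18 against all 3 and -0.16 against replicate 3, and 8 of the 20 had all rapamycin arrays below the ethanol arrays; with neqc 0 fell against replicate 3, and in a fit of only the compared arrays 1 fell against all 3. Of the 14 measured (of 16) genes of fatty acid oxidation, 3 rose and 0 fell against all 3, where 6.07% of all genes rose, and 0 passed against replicate 3. The medians were 0.11 against all 3 and 0.13 against replicate 3, and 4 of the 14 had all rapamycin arrays above the ethanol arrays, against 11.8% of all genes; with neqc 0 rose against replicate 3, and in a fit of only the compared arrays 0 rose against all 3. Of the 19 measured (of 22) genes of the respiratory chain 1 fell in each reading, Cycs (cytochrome c, -0.88 and -0.79, 1 of 3 probes of another sign). Of the 17 measured (of 20) genes of the TCA cycle and pyruvate entry, 1 fell and 0 rose against all 3 and 1 fell and 1 rose against replicate 3. Idh3a, of isocitrate dehydrogenase, was -0.79 and -0.57 with 1 of 2 probes of another sign. Pdha1, of pyruvate dehydrogenase, was 0.33 (adjusted p = 0.0562) and rose against replicate 3 by 0.54 (adjusted p = 0.00589). Of the 16 measured (of 17) glutathione and NRF2 genes, 3 fell against all 3 and 1 against replicate 3, Gclm, the modifier subunit of glutamate-cysteine ligase, by 0.52 and 0.48. Among the clock genes 1 rose and 1 fell of 13 against all 3 and 0 did against replicate 3. Metallothionein and zinc genes had 1 fall of 6 in each reading and 0 rises, and interferon-stimulated genes and chemokines 2 rises of 16 against all 3 and 0 against replicate 3.

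The fibroblast identity of the cells was checked on 7 markers, all of which were above background on all 6 arrays. Vim (vimentin) and Fn1 (fibronectin) rose against replicate 3, by 0.56 (adjusted p = 0.00955) and by 0.86 (adjusted p = 6.13e-05), and the other 5 passed in neither reading. Against all 3 the changes of Vim and Fn1 were 0.14 (adjusted p = 0.613) and 0.36 (adjusted p = 0.177). The 4 kept probes of Fn1 read 0.06, 0.25, 0.36 and 0.86 against replicate 3, and the first of them read -0.01 against all 3. In the wider list of collagens and matrix genes, 2 rose of 19 against all 3 and 4 against replicate 3, with 0 falls and 0 rises in both. Summed linear intensity over the fibroblast markers ranged over 15560 to 18570 with ethanol and 21740 to 22850 with rapamycin. Of the other cell types, 4 of 7 macrophage markers were measured, summing to 517.6 to 586.3 with ethanol and 500.5 to 535.6 with rapamycin; Ptprc, Adgre1 and Lyz2 did not pass the detection filter, and 0 of the 4 passed in either reading. Endothelial markers (6 of 7 measured) summed to 698.2 to 773.2 with ethanol and 703.3 to 794.2 with rapamycin and muscle markers (3 of 6, without Myod1) to 441.4 to 587.0 with ethanol and 493.8 to 536.6 with rapamycin, with 0 passing. Adipocyte markers (3 of 6, without Adipoq, Fabp4 and Plin1) summed to 7074 to 7404 with ethanol and 5504 to 6299 with rapamycin. Most of this sum was Lpl, with log2 intensities of 12.75, 12.78 and 12.73 with ethanol and 12.56, 12.36 and 12.54 with rapamycin. Lpl changed by -0.27 and -0.25 and passed in neither reading. Pparg changed by -0.61 (adjusted p = 0.0362) and -0.20 (adjusted p = 0.478), the first call lost under 8 of 22 alternatives (adjusted p up to 0.143). Epithelial markers (4 of 6, without Epcam and Cldn4) summed to 2452 to 4161 with ethanol and 3319 to 3749 with rapamycin: the keratin gene Krt18 rose by 0.70 and 0.92, and Krt19 rose against replicate 3 alone, by 0.42 (adjusted p = 0.0372), a call lost under 6 of 22 alternatives (adjusted p up to 0.195). The part of any other cell type in the changes above was not tested.

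**Figure D3:**
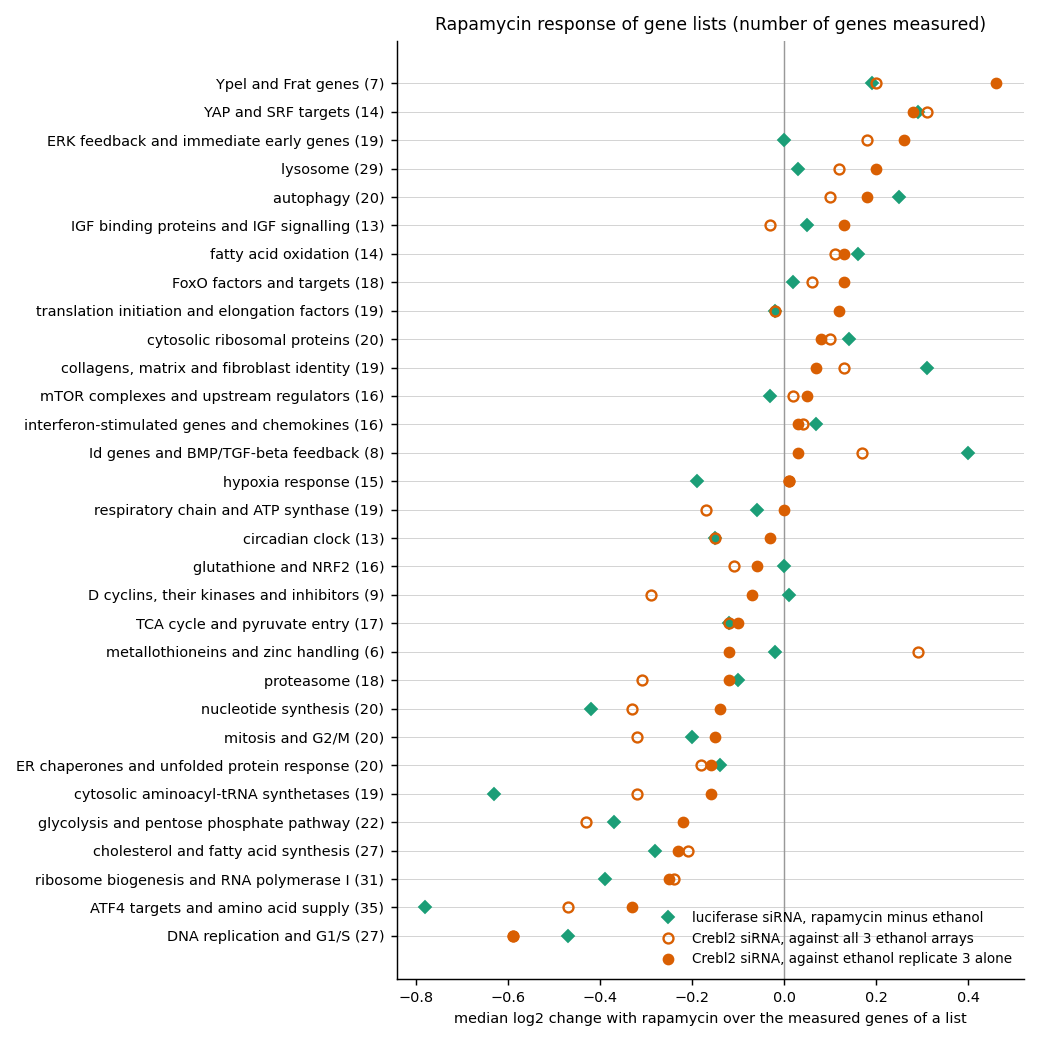
Median log2 change with rapamycin (horizontal axis) over the measured genes of each of 31 lists, with Crebl2 siRNA against all 3 ethanol arrays (open circles), against ethanol replicate 3 alone (filled circles) and with luciferase siRNA (diamonds). ATF4 targets read -0.47, -0.33 and -0.78, and DNA replication genes -0.59, -0.59 and -0.47.

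The design also allows the response to be set beside that of the luciferase siRNA cells, whose log2 changes share no array with it. The calls are not independent, because each fit took the spread of a gene from the arrays of all groups. How far this raises the overlap of calls was not tested. With luciferase siRNA 1552 genes passed (10.6%: 800 higher, or 5.44%, and 752 lower, or 5.12%). That count rested on single arrays: it was 552 and 493 without luciferase ethanol replicate 1 or 2, 947 without luciferase rapamycin replicate 3 and 3387 without Crebl2 siRNA ethanol replicate 3. Across the 14700 genes, which are not independent replicates, the log2 changes of the 2 responses correlated at 0.386 with the reading against all 3 ethanol arrays and at 0.565 with that against replicate 3. Of the 694 genes that rose against replicate 3 with Crebl2 siRNA, 295 also rose with luciferase siRNA, which is 42.5% of the former and 36.9% of the latter; 1 passed in the opposite direction. Of the 421 that fell, 209 also fell with luciferase siRNA, 49.6% and 27.8%, and 0 passed in the opposite direction. Over the 1552 genes, chosen for passing with luciferase siRNA, the change with Crebl2 siRNA had a slope through the origin of 0.488 against replicate 3 and 0.519 against all 3 on that with luciferase siRNA. Genes selected on 1 response tend to read smaller in the other, and the slope was not tested. Frat2 changed by 1.44 with luciferase siRNA, Shmt2 by -1.31 and Nars by -0.94, close to their values with Crebl2 siRNA. Their tested differences were -0.01 ± 0.16 (adjusted p = 0.986), 0.31 ± 0.17 (adjusted p = 0.428) and 0.04 ± 0.15 (adjusted p = 0.941). A difference that misses the threshold does not show that the responses are alike.

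**Figure D4:**
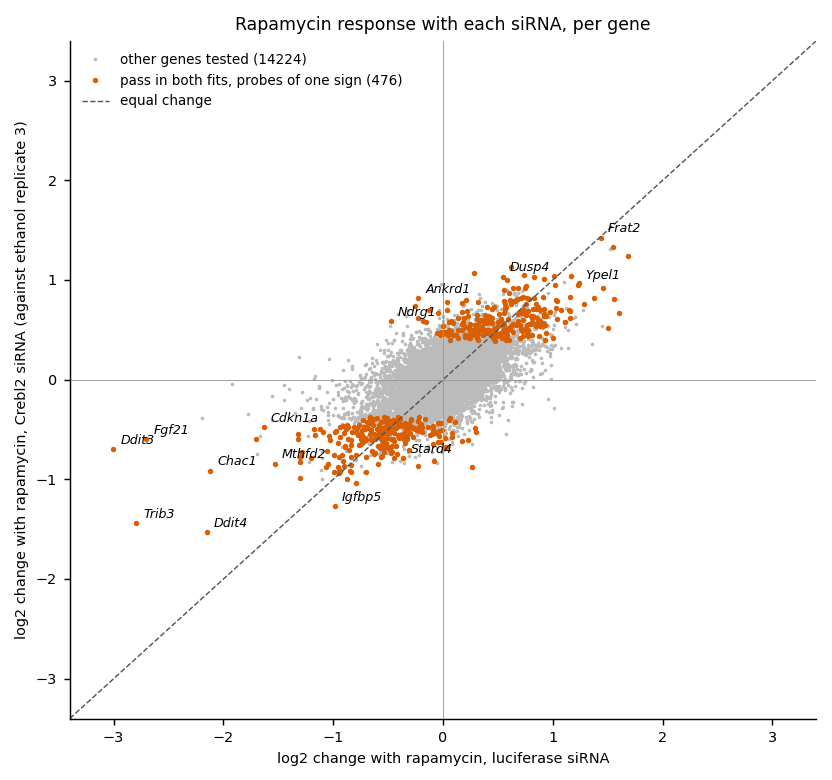
Log2 change with rapamycin per gene with luciferase siRNA (horizontal axis) and with Crebl2 siRNA against ethanol replicate 3 (vertical axis) for 14700 genes, with the 476 genes that passed in both Crebl2 siRNA readings and had probes of 1 sign in orange and a dashed line of equal change. Trib3, Ddit3, Fgf21 and Chac1 lie well left of the line, with smaller falls on the vertical axis, while Frat2 lies on it.

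The difference of the 2 responses, Crebl2 minus luciferase siRNA, passed for 58 genes with all 3 ethanol arrays (0.395%: 27 higher, or 0.184%, and 31 lower, or 0.211%). It passed for 323 with replicate 3 alone (2.2%: 213 higher, or 1.45%, and 110 lower, or 0.748%), and all 58 were among these. The first count is fragile: leaving out any 1 of the arrays gave 1 to 18 genes, except ethanol replicate 3 of the Crebl2 siRNA group, without which it was 4137. With neqc it was 7 and, with replicate 3 alone, 8. The second count was 201 without luciferase ethanol replicate 1 and 138 without luciferase ethanol replicate 2. Of the 35 ATF4 and amino acid genes, 13 differed with replicate 3 alone, all toward a smaller fall with Crebl2 siRNA, and 3 of them (Asns, Chac1 and Fgf21) did so with all 3 ethanol arrays. These 3 started lower with Crebl2 siRNA. With ethanol the luciferase and Crebl2 siRNA means were 13.498 and 12.777 for Asns and 13.509 and 12.033 for Chac1. With rapamycin they were 12.265 and 12.287, and 11.385 and 10.937. How far the lower start accounts for the smaller falls was not tested. The change of Trib3 was -2.798 with luciferase siRNA, a difference of 1.36 ± 0.15 (adjusted p = 1.12e-05), and that of Ddit3 -3.003, a difference of 2.302 ± 0.19 (adjusted p = 6.52e-08). Neither passed with all 3 ethanol arrays (adjusted p = 0.0519 and 0.155). Of the 27 DNA replication genes 1 differed with replicate 3 alone, Tk1, whose fall was larger with Crebl2 siRNA: its luciferase change was -0.23 and the difference -0.64 ± 0.16 (adjusted p = 0.0362). That difference was lost under 9 of 20 alternatives.

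Of the 6 genes with the largest positive difference that passed in both readings, Fgf21 had the largest. Its log2 intensity was 10.304 and 10.69 on the luciferase ethanol arrays and 7.99, 7.85 and 7.55 on the luciferase rapamycin arrays. With Crebl2 siRNA it was 8.08, 8.07 and 7.78 with ethanol and 6.95, 7.38 and 7.21 with rapamycin. The luciferase ethanol arrays stood alone at the high end, and the Crebl2 siRNA ethanol arrays already lay near the luciferase rapamycin arrays. The Crebl2 siRNA rapamycin arrays lay close to the intensity of Crebl2, which was near background. How far this floor limits the fall of Fgf21 was not tested. The difference of responses was 2.102 ± 0.21 (adjusted p = 1.53e-06). Stbd1, which binds glycogen, was 9.798 and 10.08 on the luciferase ethanol arrays and 8.01, 8.04 and 7.995 on the luciferase rapamycin arrays. With Crebl2 siRNA it was 8.49, 8.42 and 8.06 with ethanol and 8.07, 8.01 and 7.99 with rapamycin, with a difference of 1.88 ± 0.16 (adjusted p = 6.52e-08). Ciart, a repressor of the circadian clock, was 9.15 and 9.24 on the luciferase ethanol arrays and 7.04, 7.04 and 6.91 on the luciferase rapamycin arrays. With Crebl2 siRNA it was 7.501, 7.76 and 7.71 with ethanol and 7.39, 7.42 and 7.16 with rapamycin, with a difference of 1.81 ± 0.17 (adjusted p = 4.62e-07). In both genes the luciferase ethanol arrays lay above all others. With either siRNA the rapamycin arrays of Ciart lay close to the intensity of Crebl2. How far this floor limits the falls of Ciart was not tested. The response with Crebl2 siRNA alone passed in neither reading for Stbd1 (adjusted p = 0.106 and 0.916), and passed for Ciart against all 3 alone (adjusted p = 0.0485 and 0.0739), a call lost under 14 of 22 alternatives (adjusted p up to 0.186). Gadd45a, a stress and DNA damage gene, Gch1, the entry enzyme of tetrahydrobiopterin synthesis, and Ccl7, a chemokine, fell with luciferase siRNA by 1.55, 1.31 and 1.17. They read -0.16, 0.22 and 0.03 with Crebl2 siRNA against replicate 3, none of which passed, and 1 of the 2 probes of Gch1 had another sign. In the other direction, Edn2 (endothelin 2) fell with Crebl2 siRNA by 1.28 and 0.87 and read 0.26 (adjusted p = 0.489) with luciferase siRNA. Sema3c, a secreted guidance protein, read 0.35 (adjusted p = 0.173) with Crebl2 siRNA against replicate 3 and rose by 1.36 with luciferase siRNA. Synpo (synaptopodin, an actin-binding protein) and Gbp2b, an interferon-induced GTPase, rose with both siRNAs, by 0.67 and 0.52 against replicate 3 and by 1.605 and 1.499 with luciferase siRNA. Against all 3 they changed by 0.48 (adjusted p = 0.0226) and 0.36 (adjusted p = 0.0437), calls lost under 5 of 22 alternatives (adjusted p up to 0.0841) and under 12 of 22 alternatives (adjusted p up to 0.138). Ndrg1 and Egr1, which rose with Crebl2 siRNA, read -0.48 and -0.15 with luciferase siRNA, with differences of 1.06 ± 0.19 (adjusted p = 0.00212) and 0.73 ± 0.15 (adjusted p = 0.00791).

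**Figure D5:**
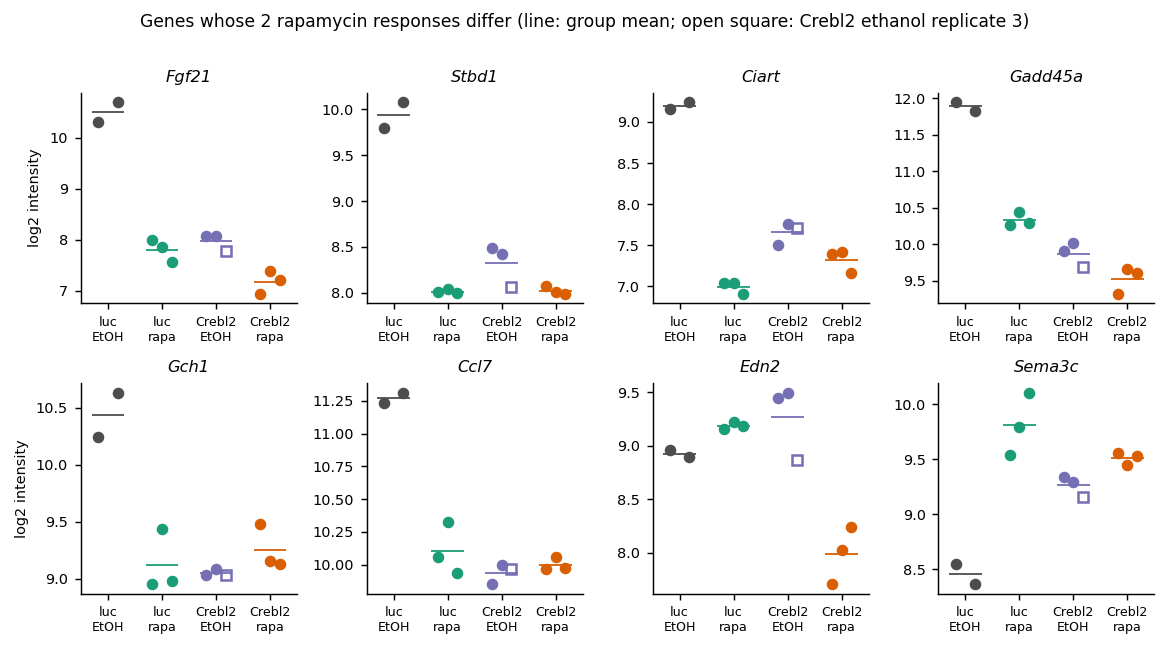
Log2 intensity (vertical axis, own scale per panel) of 8 genes on the 11 arrays in 4 groups, luciferase or Crebl2 siRNA with ethanol (EtOH) or rapamycin (rapa), with lines for group means and an open square for Crebl2 siRNA ethanol replicate 3. In the first 6 genes the luciferase ethanol arrays lie above every other array, and Edn2 falls below all others with Crebl2 siRNA and rapamycin.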

How the data were processed

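Total RNA of 11 samples was amplified with a biotin-labelling kit and hybridised to single-colour Illumina mouse arrays, per the labels' protocols. Per the file headers, the authors deposited a table of normalized intensity on a linear scale with a detection p-value per probe and array; scanner software and normalization method are not stated there. The deposited series matrix held the same intensity values, with 0 different. In the deposited non-normalized intensity table the probe identifiers and the values of a line did not match, so it was used only in an alternative, after its lines were matched to the normalized table by ranks.

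Values were taken as log2. Probes with detection p under 0.05 on at least 2 of 11 arrays were kept (28936 of 46237), 23695 with a symbol. Symbols came from the platform annotation, in which 35784 probes had 1 symbol, 0 several and 10453 none; 28620 matched a current gene by Entrez identifier, and 3258 without such a match were renamed through a synonym that belongs to 1 gene. The probe with the highest mean stood for its gene (14700 genes). All 4 groups entered limma 3.58.1 (lmFit and eBayes, R 4.3.3), with Benjamini-Hochberg adjustment over all genes and a threshold of 0.05. The reading against ethanol replicate 3 added an offset for the 4 arrays that lie apart; it had 6 residual degrees of freedom, the other 7. On simulated data with 14700 genes, log2 changes of 1 were recovered in 88% of 100 genes against all 3 ethanol arrays and in 100% against replicate 3, and changes of 0.5 in 43% and 51%. Of 148 simulated calls against all 3, 17 were false, more than the threshold allows on average, and 5 of 156 against replicate 3. Array number limits the precision of every value.

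A gene was named when it passed in both readings in the same direction with all kept probes of 1 sign: the 12 highest and 12 lowest by the smaller change, up to 4 per list, up to 2 of a list with none (lowest p against replicate 3), 6 each way whose responses differ in both fits, and Crebl2 and Tsc2. Other genes of the lists that the text names, and all named with 1 reading or with disagreeing probes, were chosen after their values were seen. The rule also asked for genes that pass against all 3 ethanol arrays with the opposite sign against replicate 3, of which there were 0. The comparison, its lists and its tests were chosen with earlier results of these data known. Whether replicate numbers pair the arrays could not be told. Deviations of same-numbered Crebl2 siRNA arrays correlated at 0.072, 0.061 and 0.14, and those of arrays with other numbers at -0.139 to 0.105. Ethanol replicates 1 and 2 share the deviation that the shift of replicate 3 gives them, so the check cannot show or exclude pairing. Alternatives were another background correction and normalization, scaling, offset, detection filter, probe rule, samples in the fit, array weights, replicate block and each array left out. The p53 gene is not analysed here. Promoters are RefSeq windows.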

Additional observations from a re-analysis of the deposited data

Results flagged for a closer look

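For 17 genes, 16 that the naming rule chose and Asns, the rapamycin response differed between the siRNAs in a test of the difference itself, both with all 3 ethanol arrays and with replicate 3 alone. The difference of log2 changes, Crebl2 minus luciferase siRNA with replicate 3 alone, was positive in 11: 2.102 for Fgf21, 1.88 for Stbd1, 1.81 for Ciart, 1.53 for Gch1, 1.39 for Gadd45a, 1.21 for Chac1 and 1.198 for Ccl7, and 1.16 for Cdkn1a, 1.06 for Ndrg1, 0.73 for Egr1 and 0.66 for Asns (1 of 3 probes of another sign in the Crebl2 siRNA readings). Cdkn1a fell by 1.63 with luciferase siRNA and by 0.48 with Crebl2 siRNA against replicate 3. With Crebl2 siRNA and rapamycin its log2 intensity was 7.02, 7.11 and 6.97, close to that of Crebl2, which was near background. Fgf21 was similarly low there (6.95, 7.38 and 7.21), and so was Ciart (7.395, 7.42 and 7.16). How far this floor limits these falls was not tested. Over the alternatives the change against replicate 3 ranged from -1.187 to -0.272 for Cdkn1a and from -1.324 to -0.482 for Fgf21. The difference was negative in 6: -1.13 for Edn2, -1.003 for Sema3c, -0.99 for Amigo3, -0.98 for Gbp2b, -0.97 for Nrep and -0.94 for Synpo. Amigo3, a leucine-rich repeat membrane protein, read 0.59 with luciferase siRNA and -0.40 with Crebl2 siRNA, and Nrep read 0.72 and -0.25. The luciferase ethanol group holds 2 arrays. With neqc the difference passed for 2 of the 17, Stbd1 and Ciart. Ccl7, Gadd45a, Gch1, Nrep, Sema3c and Stbd1 passed in neither Crebl2 siRNA reading, and Amigo3 and Ciart only against all 3 ethanol arrays.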

How the results depend on the processing

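Over the alternatives, the named genes' values kept their direction and their side of the threshold in 5964 of 6438 cases. In 382 cases a call was lost, in 60 a value newly passed, 29 values without a call changed sign, and 3 calls reversed: with the mean of all kept probes Idh3a read 0.15 (adjusted p = 0.699), Psmc4 0.031 (adjusted p = 0.907) and Pgam1 0.62 (adjusted p = 0.291) against all 3 ethanol arrays. The losses were uneven. Of 106 named genes called against replicate 3, 60 lost the call with neqc, 18 with the replicate block, 13 with the mean of all kept probes and 14, 11 and 13 without rapamycin replicate 1, 2 or 3. Of 106 called against all 3, 34 lost it in a fit of only the compared groups, 20 and 21 without ethanol replicate 1 or 2, and 23, 20 and 20 without rapamycin replicate 1, 2 or 3. Of 20 named differences, 17 were lost with neqc. All calls were kept for 59 of 106 genes against all 3 and for 43 of 106 against replicate 3. Against all 3, 423 genes passed in a fit of only the compared groups and 6169 with array weights; leaving out single arrays gave 602 to 5853. Against replicate 3, 242 passed with neqc, and single arrays left out gave 898 to 1280. With luciferase siRNA the counts were 1016 with neqc, 3064 with only the compared groups, 3212 with array weights, 3343 with only the 7 arrays that lie together (chosen after seeing the data) and 493 to 3387 with single arrays left out. The difference of the responses with all 3 ethanol arrays passed for 7 genes with neqc, 4137 with array weights, and 1 to 4137 with single arrays left out; with replicate 3 alone it passed for 8 with neqc and 138 to 362. With the replicate block the counts were 1955 and 766 for rapamycin with Crebl2 siRNA, 1261 for luciferase siRNA, and 5 and 110 for the differences. The arrays of a block are known to share only a number. The share of calls that were higher was 46.7% against all 3 and 62.2% against replicate 3, 29.6% and 45.9% with neqc, and 33.7% and 46.4% after another quantile normalization. The cause of these changes was not tested.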
